A study of Mus musculus with 29 samples.

Results

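The 10 genes described here mark the sinusoidal endothelial cells of the liver or encode the signals and receptors these cells use. They were chosen by name, and all 10 were found in the count table, which lists 55421 genes. Stab2 (stabilin-2) and Lyve1 are hyaluronan receptors, Clec4g is a C-type lectin, and Oit3 and Dnase1l3 (a secreted DNase) are further genes of the sinusoidal endothelium. Kdr encodes the VEGF receptor VEGFR2, and Pecam1 encodes CD31, which endothelial cells of every vessel carry. Wnt2, Rspo3 and Bmp2 encode angiocrine factors, proteins that endothelial cells secrete to act on their neighbours.

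Liver sinusoids are lined by a thin endothelium with open pores and no continuous basement membrane, and these cells clear hyaluronan, modified proteins and other waste from the blood. Around the central vein, endothelial Wnt ligands together with R-spondin 3 keep the Wnt pathway active in the nearest hepatocytes, which then express genes such as Glul and Axin2. Sinusoidal Bmp2, with Bmp6, acts through SMAD proteins on hepatocytes to switch on hepcidin, the hormone that limits iron uptake.

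RNA of the whole liver was sequenced in mice of 6 groups. The old groups were C57BL/6J mice, 20 months old in females and 24 months old in males, gavaged daily for 14 days with vehicle or with HDM201 at 10 mg per kg, an inhibitor of MDM2, the protein that holds p53 down. The young groups were mice of 5 months labelled C57BL6/N that received vehicle, so that age and substrain cannot be told apart. The study's methods give slightly different ages for the old females and the young mice. Counts were given for 5 young vehicle, 4 old vehicle and 5 old HDM201 females and for 4 young vehicle, 4 old vehicle and 5 old HDM201 males. The 27 libraries held between 16485900 and 23570458 reads on genes. Old vehicle male 1 and young vehicle male 5 had FPKM values only (fragments scaled by transcript length and library size) and no column of counts. The tissue label was checked against 10 hepatocyte markers, Alb and Apoa1 among them, whose sum lay between 105883 and 186172 CPM (read counts scaled to a common library size), with none at 0 in any group. In such bulk samples, fewer endothelial cells and less RNA per endothelial cell cannot be told apart.

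The promoters of Stab2 and Clec4g are shown because both genes were higher in young females than in young males, as described in the comparison of the sexes. Each window covers 250 bases before to 50 bases after the start of the gene in RefSeq (GRCm38.p6), on the minus strand of chr10:87007893-87008192 for Stab2 and of chr8:3720602-3720901 for Clec4g. Capitals mark the letters AGGAAG, a form of the core bound by the ETS factors that endothelial cells use widely, or CTTCCT, which is the same word on the other strand.
Stab2: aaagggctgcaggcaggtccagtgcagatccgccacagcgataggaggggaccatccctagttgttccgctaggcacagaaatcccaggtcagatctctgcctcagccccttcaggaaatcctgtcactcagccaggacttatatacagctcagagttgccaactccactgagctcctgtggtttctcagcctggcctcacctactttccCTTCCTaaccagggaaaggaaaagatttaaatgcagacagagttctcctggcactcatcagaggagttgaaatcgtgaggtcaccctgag
Clec4g: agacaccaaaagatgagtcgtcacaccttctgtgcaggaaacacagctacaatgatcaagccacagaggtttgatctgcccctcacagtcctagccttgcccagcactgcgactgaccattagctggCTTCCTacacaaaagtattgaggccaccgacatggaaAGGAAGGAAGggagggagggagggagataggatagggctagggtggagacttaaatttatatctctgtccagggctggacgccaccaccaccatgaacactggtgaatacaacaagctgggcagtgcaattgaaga
The word occurred 1 time in the Stab2 window and 3 times in the Clec4g window, where 2 of the matches overlap, and it was present in 35.4% of all 32851 RefSeq promoters of this length. The word AGATAA, a form of the site of GATA factors, was held by 11.2% of all promoters. The word TTCNNNGAA, the site of STAT factors, was held by 8.3% of them. Both were searched on both strands, and neither window shown holds them. Of the 10 genes, 4 matched the promoter table (Stab2, Clec4g, Kdr and Wnt2), and the windows of Kdr and Wnt2 held none of the 3 words.

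All 10 genes were detected in each of the 27 livers with counts. Read counts ranged from 241 to 1302 for Dnase1l3, from 384 to 1057 for Stab2 and from 366 to 1089 for Clec4g, whereas Wnt2 had only 9 to 47 reads per liver and Rspo3 had 44 to 118. Levels in CPM are given here after scaling all 27 libraries together by TMM (trimmed mean of M-values), and serve to compare mice rather than genes, because they take no account of transcript length.

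Between genes, levels were compared in FPKM, which is scaled by length. Across 29 mice the median FPKM was 28.4 for Clec4g, 8.03 for Dnase1l3, 6.26 for Oit3, 5.93 for Stab2, 4.68 for Kdr, 3.89 for Pecam1, 3.52 for Bmp2, 2.49 for Lyve1, 1.09 for Rspo3 and 0.596 for Wnt2. Clec4g stood above Dnase1l3 in 29 of 29 mice, and Rspo3 above Wnt2 in 29 of 29. Neighbours in the middle of this order changed places in some livers, with Pecam1 above Bmp2 in 20 of 29 mice and Stab2 above Kdr in 23 of 29. The angiocrine factors Bmp2, Rspo3 and Wnt2 were in the lower part of the order, and the lectin Clec4g was at its top.

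Sinusoidal endothelium was also measured by other markers of it (Stab1, Fcgr2b, Gpr182, Flt4, Ehd3, Gata4, F8, Mrc1, Maf and Plxnc1). Their summed level lay between 188 and 394 CPM, with none at 0 in any whole group. Macrophages carry some of these genes too, among them Mrc1 and Stab1, and the sums do not show which cells the reads of the 10 genes came from. Lymphatic endothelium also carries Lyve1. Of its 5 markers (Pdpn, Mmrn1, Ccl21a, Foxc2 and Prox1) Ccl21a had 0 reads in each of the 27 livers. Their sum lay between 75.2 and 149 CPM and was mostly Prox1, which hepatocytes also express. Mmrn1 lay between 0 and 1.36 CPM, and its values are given beside those of Lyve1 in the comparisons of age and sex.

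**Figure D1:**
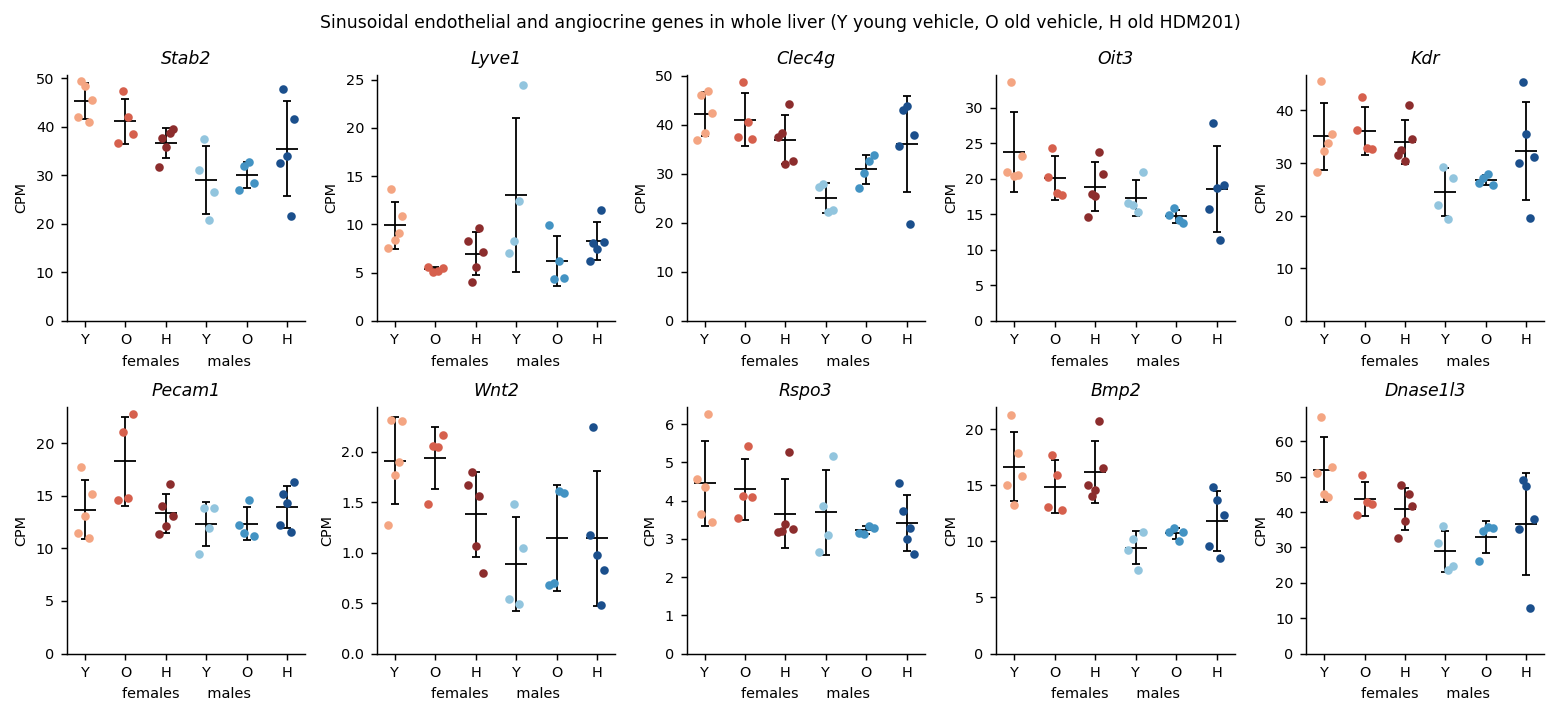
Level of each of the 10 genes in CPM (linear axis starting at 0) in every mouse with counts, by group: Y young vehicle, O old vehicle and H old HDM201, females in reds and males in blues. Each point is 1 mouse, bars give the group mean and SD. Lyve1 in old vehicle females lies below every young female, and Stab2, Clec4g, Bmp2 and Dnase1l3 in young females lie above every young male.

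The age comparison in females asked how the endothelial genes differ between old and young vehicle livers. Of the 10 genes only Lyve1 passed the test, and it was lower in old females. In young females Lyve1 measured 7.56, 13.7, 8.37, 9.07 and 10.8 CPM, and in old vehicle females 5.62, 5.02, 5.15 and 5.47 CPM. Every old female lay below every young one, and the old females were closer together than the young. The share of all genes with such a gap is not given for this comparison. Lyve1 fell by 0.88 on the log2 scale (SE 0.17, 95% interval -1.24 to -0.52, edgeR quasi-likelihood test, FDR = 0.00195), to 0.543 of the young level. Left out in turn, no mouse ended the call (log2 change between -0.97 and -0.74 in 9 of 9 fits).

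The count of 1 gene in 10 lies below the share of all genes called in this comparison, which was 31.8% of 14233 genes in either direction. An unadjusted p under 0.05 was found for 6068 of all 14233 genes, and DESeq2 called 4798 of 14229. Of the 10 genes, 2 had an unadjusted p under 0.05, and DESeq2 called 1. The other was Pecam1, which measured 11.5, 17.8, 13.1, 11.0 and 15.2 CPM in young and 14.6, 21.1, 14.8 and 22.8 CPM in old vehicle females. These groups overlapped, and the log2 change of 0.44 (SE 0.17) missed the threshold (edgeR, FDR = 0.068). Leaving out old vehicle female 1, old vehicle female 3 or young vehicle female 2 brought the FDR of Pecam1 to 0.0436, 0.0417 and 0.0279, which gives 2 genes called in place of 1.

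For Stab2, Clec4g, Oit3 and Dnase1l3 the differences were small and their intervals included 0. The log2 change was -0.12 for Stab2 (95% interval -0.32 to 0.08), -0.02 for Clec4g (-0.24 to 0.21), -0.22 for Oit3 (-0.55 to 0.12) and -0.23 for Dnase1l3 (-0.50 to 0.03). Kdr, the VEGF receptor, stood at 0.06 (-0.22 to 0.34). The angiocrine factors gave 0.04 for Wnt2 (-0.44 to 0.51), -0.03 for Rspo3 (-0.45 to 0.39) and -0.14 for Bmp2 (-0.46 to 0.17). The median over the 10 genes was -0.07, beside 0.01 over all genes tested.

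Lyve1 was also set against its companions, which reuses the same Lyve1 values and is no separate measurement. As a log2 ratio to the mean of the other 9 genes in the same liver, Lyve1 stood at -0.84 ± 0.18 (SD, n = 5) in young and -1.67 ± 0.22 (SD, n = 4) in old vehicle females. The old females ranged from -1.95 to -1.42 and the young from -1.02 to -0.61, so the groups did not overlap on this scale either.

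Other lists of endothelial genes in the same livers had list medians between 0.00 and 0.36, apart from the lymphatic list (0.46 over only 2 tested genes). Of 10 further sinusoidal markers 2 were higher in old females (Maf, log2 change 0.45, and Gata4, 0.31) and none was lower, with a list median of 0.06. Of 20 markers shared by all endothelia 4 were higher (Icam2 0.85, Cldn5 0.56, S1pr1 0.54 and Cdh5 0.54) and none lower, with a median of 0.00. Among 9 tested genes of capillaries and larger vessels, Cd34 (0.73), Ly6a (0.46) and Plvap (0.32) were higher, with a median of 0.10. In the axis of VEGF, angiopoietins and Notch, 5 of 15 tested genes were higher, led by the VEGF co-receptor Nrp2 (0.82), the flow-induced factor Klf2 (0.81) and the Notch target Hes1 (0.76), with a median of 0.36. The shares of 5 in 15 and 3 in 9 lie near the 31.8% of all genes called, and those of 2 in 10 and 4 in 20 lie below it.

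Markers of immune cells were at higher levels in the old females. Of 10 Kupffer cell and macrophage markers 9 were higher in old females (median 1.18), with a summed level of 386 to 819 CPM against 240 to 367 CPM in young females and none at 0. Of 10 leukocyte markers 9 were higher (median 2.33), with sums of 39.3 to 65.0 CPM against 11.5 to 12.4 CPM. Some macrophages carry Lyve1 or Pecam1, and the part of these cells in either gene's values was not tested. The lymphatic marker Mmrn1 lay at 0.115 to 0.572 CPM (2 to 9 reads) in young and 0.212 to 1.16 CPM (4 to 21 reads) in old vehicle females, with a higher mean in the old group. Pdpn lay at 0.0520 to 0.462 CPM in young and 0.0553 to 0.330 CPM in old vehicle females. Foxc2 lay at 0 to 0.287 CPM in young and 0 to 0.179 CPM in old. All these ranges overlapped, and the part of lymphatic endothelium in the Lyve1 values was not tested.

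Genes known to respond to these angiocrine factors were described in the same livers. Of 16 Wnt target genes of pericentral hepatocytes 8 were lower in old females and 1 was higher, with a median of -0.45. The largest falls were in Oat, which encodes ornithine aminotransferase (log2 change -1.36), the glutamate transporter gene Slc1a2 (-0.98) and the cytochrome P450 gene Cyp2e1 (-0.94), and Slc13a3 was higher (0.92). Glul (-0.51) and Axin2 (-0.69), named here after their values were seen, were among the genes lower in old females, whereas Lgr5 (0.08, FDR = 0.825) and Notum (-0.05, FDR = 0.77) did not pass the edgeR test. Of 17 tested Wnt ligands, receptors and regulators, 5 were higher, led by Dkk3 (1.77), Wnt5a (0.97) and Wnt4 (0.94), and Tcf7l2 was lower (-0.23). Beside these lists, 31.8% of all 14233 genes were called in either direction.

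In the BMP pathway 4 of 9 target genes were higher in old females, led by Id3 (1.18), Atoh8 (0.85) and Id2 (0.60), and 2 were lower, the hepcidin gene Hamp2 (-0.92) and Smad9 (-0.73). Hamp, the main hepcidin gene, gave -0.19 (edgeR, FDR = 0.347). Of 14 tested BMP ligands, receptors and SMADs, the endothelial receptor gene Acvrl1 was higher (0.90) and Bmpr2 was lower (-0.32). The share called among all genes was 31.8% here too.

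In males none of the 10 genes passed the test between old and young vehicle livers, in a comparison that called 3.69% of 13755 genes with edgeR. Among all 13755 genes 3007 had an unadjusted p under 0.05, and DESeq2 called 1309 of 13751. Of the 10, 2 had an unadjusted p under 0.05, and DESeq2 called 0. Lyve1 measured 7.05, 8.25, 12.4 and 24.5 CPM in young and 9.89, 4.29, 6.20 and 4.40 CPM in old vehicle males. The groups overlapped, and young vehicle male 4 held the highest Lyve1 level of all 27 mice. The same mouse held the highest level of Mmrn1, with 0, 0.569, 0.707 and 1.36 CPM (0 to 30 reads) in young vehicle males 1 to 4 against 0.290 to 0.838 CPM in old vehicle males. The other lymphatic markers were mixed in this mouse. Its Foxc2 (0.182 CPM, 4 reads) and Prox1 (147 CPM) were the highest of the young males. Its Pdpn (0.136 CPM, 3 reads) lay below young vehicle males 2 and 3 (0.341 and 0.272 CPM), and Ccl21a had 0 reads. The part of lymphatic endothelium in the Lyve1 values was not tested. The log2 change was -1.07 (SE 0.41, 95% interval -1.98 to -0.17, edgeR, FDR = 0.16), and without young vehicle male 4 it was -0.57. Clec4g was the other gene, at 27.3, 28.0, 22.3 and 22.5 CPM in young and 27.1, 30.1, 32.7 and 33.8 CPM in old vehicle males. Its log2 change was 0.31 (SE 0.11, edgeR, FDR = 0.134), with the lowest old male inside the young range.

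The remaining 8 genes in males had log2 changes between -0.22 (Oit3) and 0.37 (Wnt2), and the median over the 10 was 0.10 beside -0.01 over all genes. The effect of age was compared between the sexes as the female change minus the male change. None of the 10 genes passed this test (edgeR, 3.92% of 14721 genes called, 0 of the 10 at an unadjusted p under 0.05, 0 with DESeq2). Among all genes 3160 had an unadjusted p under 0.05, and DESeq2 called 1181 of 14717. For Lyve1 the difference was 0.20 with a 95% interval from -0.76 to 1.16, which leaves room for a difference of either sign.

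**Figure D2:**
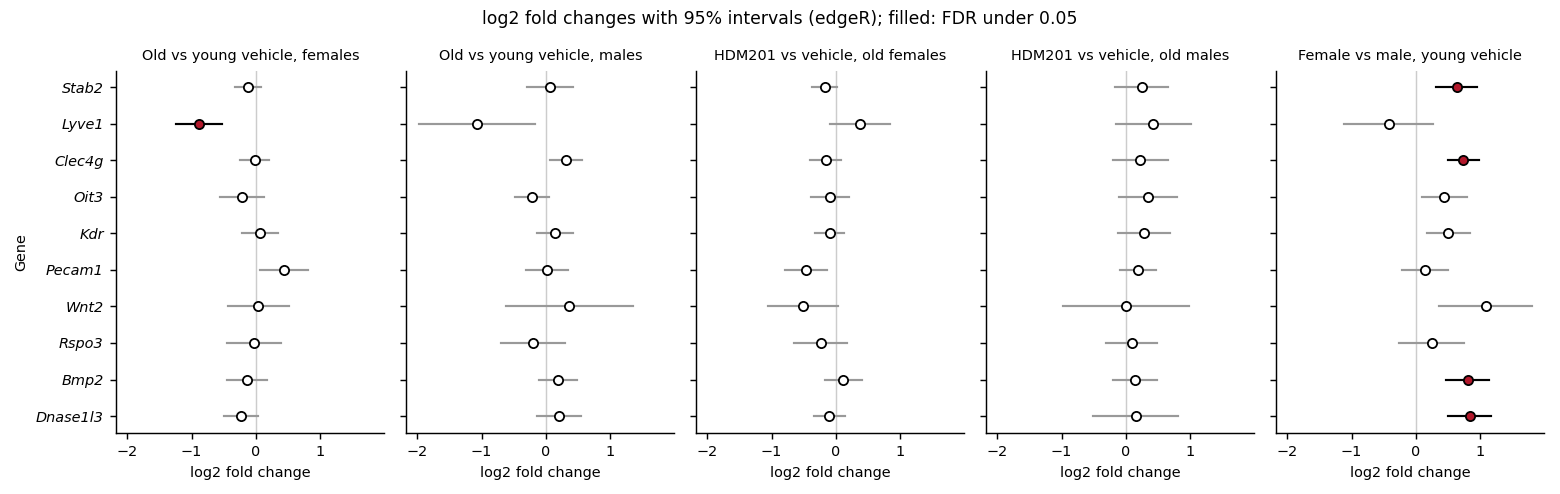
The log2 fold change of each of the 10 genes (points) with its 95% interval (lines) in 5 comparisons, from edgeR. Filled red points passed FDR 0.05: Lyve1 with age in females at -0.88, and Stab2, Clec4g, Bmp2 and Dnase1l3 between young females and young males at 0.63 to 0.83.

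The HDM201 comparison in old females asked whether 14 days of the MDM2 inhibitor changed the endothelial genes. None of the 10 passed the test with edgeR, where 5.25% of 14445 genes did. An unadjusted p under 0.05 was found for 3247 of all genes and for 1 of the 10. That gene was Pecam1, which measured 11.4, 14.1, 12.1, 16.1 and 13.1 CPM with HDM201 against 14.6, 21.1, 14.8 and 22.8 CPM with vehicle. Only old HDM201 female 4 reached into the vehicle range. Its log2 change was -0.47 (SE 0.15, edgeR, FDR = 0.0886), and DESeq2 called it with an FDR of 0.0449. In this comparison DESeq2 called 1329 of 14440 genes. The age and HDM201 comparisons share the old vehicle mice, and 2 of those 4 mice had the highest Pecam1 levels among all 27. Old vehicle male 1, which has no counts, stood higher still in FPKM (6.80, against 6.41 in old vehicle female 4).

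Lyve1 in old HDM201 females measured 8.28, 3.98, 5.60, 9.63 and 7.17 CPM, against 5.02 to 5.62 CPM with vehicle. Of the 5 treated mice, 3 lay above the vehicle range, 1 within it and 1 below it. The log2 change was 0.38 (95% interval -0.09 to 0.84, edgeR, FDR = 0.322), and relative to the other 9 genes the treated mice spread from -1.94 to -0.72. Wnt2 measured 1.67, 1.80, 1.06, 1.56 and 0.802 CPM with HDM201 and 1.48, 2.06, 2.05 and 2.17 CPM with vehicle, a log2 change of -0.51 (-1.06 to 0.03, FDR = 0.25) on 17 to 46 reads per liver.

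The other 7 genes had log2 changes between -0.23 (Rspo3) and 0.11 (Bmp2) under HDM201 in females. The median over the 10 was -0.13, beside 0.00 over all genes. Among the endothelial lists, Cdh5 (VE-cadherin, -0.55) and Ly6a (-0.52) were lower with HDM201, Klf2 was lower (-0.72) and Hes1 higher (0.78), and 0 of 10 further sinusoidal markers passed the edgeR test. Of 16 pericentral Wnt target genes 0 passed, with a median of 0.12, and of 9 BMP targets Smad9 was higher (1.31). Beside these lists, 5.25% of all genes were called in either direction. Of 10 Kupffer cell and macrophage markers 8 were lower (median -1.14), with sums of 241 to 400 CPM against 386 to 819 CPM with vehicle, and their part in the Pecam1, Cdh5 and Ly6a values was not tested.

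In old males none of the 10 genes passed the test under HDM201 (edgeR, 0.00709% of 14109 genes called, 0 of the 10 at an unadjusted p under 0.05, 0 with DESeq2). Among all genes 1710 had an unadjusted p under 0.05, and DESeq2 called 171 of 14094. The log2 changes ran from 0.00 (Wnt2, whose sign differed with DESeq2) to 0.42 (Lyve1), none below 0, with a median of 0.20 beside 0.01 over all genes. In CPM, the SD of the treated males was larger than that of the vehicle males for 9 of the 10 genes. Lyve1 was the exception (1.97 against 2.61 CPM). The share of all genes with a larger SD was not computed. In FPKM, where old vehicle male 1 is added, the SD with HDM201 was also smaller for Pecam1 (0.592 against 1.59) and Bmp2 (0.6487 against 0.6494). Dnase1l3 measured 35.3, 49.2, 47.3, 12.9 and 38.0 CPM with HDM201 and 26.1, 34.5, 35.7 and 35.4 CPM with vehicle. Kdr measured 30.1, 45.3, 35.6, 19.6 and 31.2 CPM with HDM201 and 26.1, 27.2, 27.9 and 25.8 CPM with vehicle.

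Old HDM201 male 4 held the lowest level of all 27 mice for Clec4g, Oit3, Wnt2 and Dnase1l3, and old HDM201 male 2 was the highest of its group for Stab2, Oit3, Kdr, Wnt2, Bmp2 and Dnase1l3. The sum of the 10 further sinusoidal markers was 188 CPM in male 4 and 331 CPM in male 2, against 246 to 250 CPM in the vehicle males. Lyve1 ran the other way, at 11.5 CPM in male 4, the highest of the 5 treated males, and 8.07 CPM in male 2. Male 4 also held the highest levels of all 27 mice for the lymphatic markers Pdpn (2.09 CPM, 39 reads) and Foxc2 (1.07 CPM, 20 reads). The other markers of that list did not stand out in this mouse. Mmrn1 (0.215 CPM, 4 reads) lay inside the range of the other treated males, Prox1 (83.4 CPM) was the lowest of the 5, and Ccl21a had 0 reads. The part of lymphatic endothelium in its Lyve1 level was not tested. The effect of HDM201 did not pass a test of difference between the sexes for any of the 10 genes (edgeR, 0.107% of 14974 genes called, 0 with DESeq2). Among all genes 2774 had an unadjusted p under 0.05 in that test, and DESeq2 called 682 of 14964. Of the 10, Pecam1 alone had an unadjusted p under 0.05. Its female change was lower than the male change by a log2 difference of -0.64 (95% interval -1.08 to -0.21, edgeR, FDR = 0.116). The median of the 10 differences was -0.38 beside 0.00 over all genes.

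Young vehicle mice of the 2 sexes, which share age and labelled substrain, gave 4 calls among these genes, the most of any comparison made. Of the 10 genes 4 were higher in females and none was lower, where 10.5% of 13875 genes were called in either direction and 5.63% were called higher in females. The 4 genes were Stab2, Clec4g, Bmp2 and Dnase1l3, and their values did not overlap between the sexes. A gap of this kind, with all females above all males, was found in 7.00% of all genes. Of the 10 genes 7 had an unadjusted p under 0.05, beside 3830 of all 13875 genes. DESeq2 called 6 of the 10, beside 2123 of 13873 genes.

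Dnase1l3 measured 51.0, 66.9, 45.0, 44.2 and 52.7 CPM in young females and 31.1, 36.1, 23.5 and 24.8 CPM in young males. The log2 difference, female minus male, was 0.83 (SE 0.15, edgeR, FDR = 0.00547), or 1.78-fold. Bmp2 measured 15.1, 21.3, 13.3, 17.9 and 15.8 CPM in females and 9.27, 10.2, 7.45 and 10.9 CPM in males, a log2 difference of 0.80 (SE 0.15, edgeR, FDR = 0.0074). The female with the least Bmp2 lay above the male with the most.

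Clec4g measured 36.8, 46.0, 38.4, 47.0 and 42.3 CPM in young females and 27.3, 28.0, 22.3 and 22.5 CPM in young males, a log2 difference of 0.74 (SE 0.11, edgeR, FDR = 0.00145). Stab2 measured 42.1, 49.4, 48.4, 41.1 and 45.5 CPM in females and 31.1, 37.4, 20.9 and 26.5 CPM in males, a log2 difference of 0.63 (SE 0.14, edgeR, FDR = 0.0168). For Stab2 the males were spread more widely than the females, and without young vehicle male 4 the FDR was 0.0567. The calls for the other 3 genes held in each of the 9 fits that left out 1 mouse.

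Young vehicle male 5, which has FPKM values but no counts, had higher levels of Stab2 and Clec4g than the other young males. According to the methods 1 young male was left out of the study's analysis for a wound with suspected infection, and the sources used here do not say whether it was this mouse. Its Stab2 level of 7.77 FPKM was the highest of all 29 mice, just over old vehicle female 3 (7.76 FPKM), and lay above young females at 5.62 to 7.12 FPKM and the other young males at 2.71 to 4.69 FPKM. Its Clec4g level of 28.8 FPKM lay within the young female range of 24.7 to 35.3 FPKM. For Dnase1l3 (6.23 FPKM) and Bmp2 (1.90 FPKM) it lay with the other males. With this mouse included, limma on log2(FPKM + 1) gave an FDR of 0.306 for Stab2 and 0.0938 for Clec4g, whereas Dnase1l3 and Bmp2 were called. Fitted on the mice with counts alone, the same FPKM values gave an FDR of 0.0339 for Stab2 with limma.

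Kdr, Wnt2 and Oit3 were also at higher mean levels in young females but missed the threshold with edgeR, at log2 differences of 0.51 (FDR = 0.0519), 1.08 (FDR = 0.0565) and 0.44 (FDR = 0.0937). Without young vehicle male 2 both Kdr (FDR = 0.0361) and Wnt2 (FDR = 0.0214) passed with edgeR, and without young vehicle female 1 Kdr did (FDR = 0.0421). Wnt2 measured 1.27, 2.31, 1.77, 1.89 and 2.31 CPM in females and 0.542, 1.48, 0.489 and 1.04 CPM in males, on 9 to 47 reads, and only young vehicle male 2 reached into the female range. The log2 differences of Rspo3 (0.24, 95% interval -0.26 to 0.75) and Pecam1 (0.14, -0.21 to 0.49) had intervals that included 0. Lyve1 was the only one of the 10 below 0, at -0.42 (-1.11 to 0.27). Without young vehicle male 4, which had the most Mmrn1 but not the most Pdpn, the difference of Lyve1 was 0.10. The median over the 10 genes was 0.57 beside 0.00 over all genes.

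In the old vehicle mice, whose ages differ between the sexes, Stab2 lay at 36.7 to 47.3 CPM in females and 27.0 to 32.7 CPM in males. Clec4g lay at 37.1 to 48.8 CPM and 27.1 to 33.8 CPM, Bmp2 at 12.8 to 17.7 CPM and 10.0 to 11.2 CPM, and Dnase1l3 at 39.0 to 50.3 CPM and 26.1 to 35.7 CPM. These ranges did not overlap, nor did those of Kdr, Oit3 and Rspo3. The share of all genes with such a gap in old mice was not computed, and no test was made of the ranges. Old vehicle male 1, which has no counts, had Dnase1l3 at 9.28 FPKM, within the old vehicle female range of 8.01 to 10.3 FPKM.

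Of the 10 further sinusoidal markers 4 were higher in young females (Ehd3 0.82, Fcgr2b 0.55, Maf 0.47 and Gpr182 0.43) and none was called lower, with a list median of 0.45. Of the 10, 9 had log2 differences above 0, and Gata4 stood at -0.25 (edgeR, FDR = 0.0895). Their sums were 307 to 394 CPM in young females and 207 to 260 CPM in young males. Among the shared endothelial markers 3 of 20 were higher in females (Cdh5 0.60, Eng 0.41 and Egfl7 0.40), with a median of 0.24, and among 9 tested genes of capillaries and larger vessels Ly6a (1.38), Plvap (0.86) and the water channel gene Aqp1 (0.64) were higher. Nrp2 (1.29) and Klf2 (1.11) were higher in the VEGF and Notch axis. Beside these lists, 10.5% of all genes were called in either direction and 5.63% were called higher in females.

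Cells other than the endothelium also differed between young females and males. Of 9 tested Kupffer cell and macrophage markers 6 were higher in females (median 0.93), with sums of 240 to 367 CPM against 111 to 227 CPM, and of 12 stellate cell and fibroblast markers 5 were higher (median 0.66), with sums of 442 to 606 CPM against 276 to 367 CPM. Hepatocyte markers had a median of -0.11, with 1 of 10 lower in females. No marker of these 3 lists was at 0 throughout either group, and their part in the sex difference was not tested.

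Of the pericentral Wnt targets, 4 of 16 were higher in young females, led by Rhbg (0.99), Nkd1 (0.98) and Lect2 (0.88), with Notum the fourth (0.74). None of the 17 tested Wnt and R-spondin ligands, receptors and regulators outside the 10 genes passed the edgeR test. Among BMP targets, Hamp2 was much higher in females (4.28), whereas Smad9 (-1.05), Id2 (-0.84) and Id3 (-0.75) were lower. Hamp, the main hepcidin gene, gave -0.07 (edgeR, FDR = 0.874). Of the BMP ligands and receptors, Gdf2 (BMP9) was higher in females (0.69) and Acvr2a lower (-0.38). The share called among all genes was 10.5% in either direction.

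**Figure D3:**
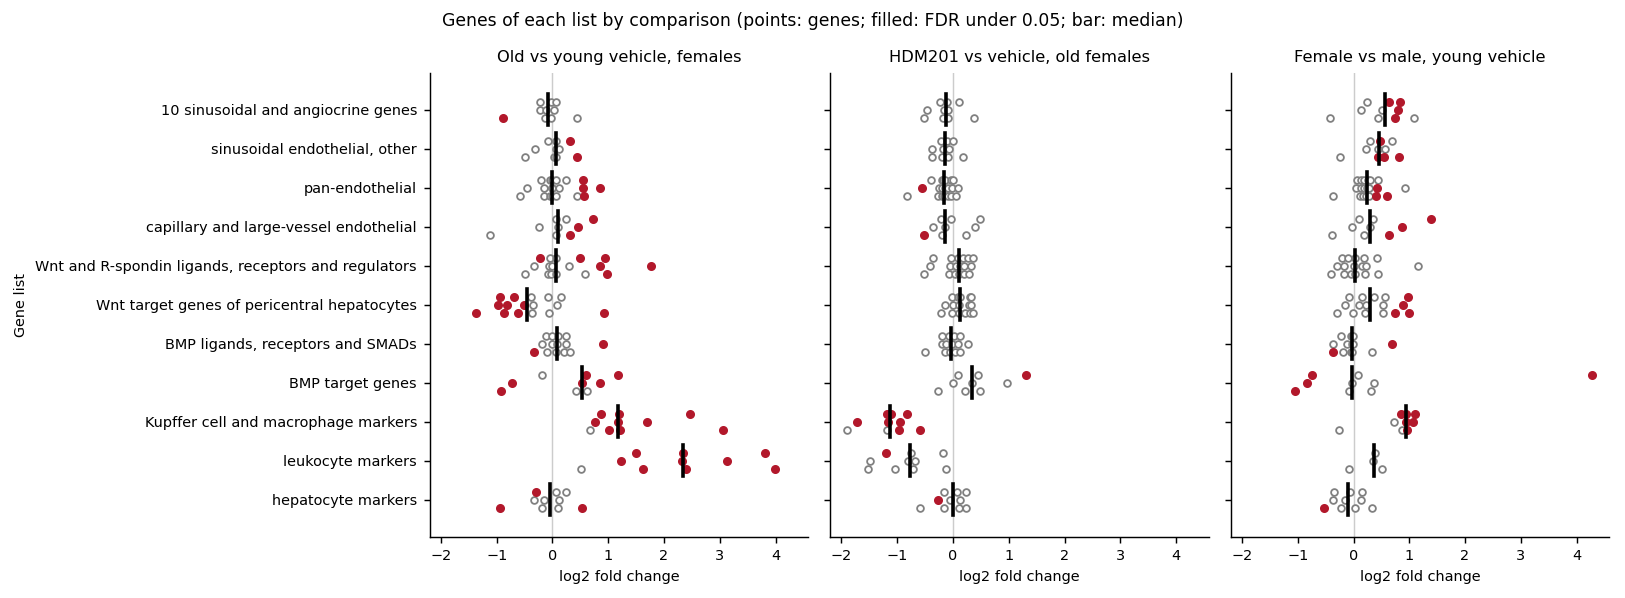
The log2 fold change of each tested gene (points, filled red where FDR was under 0.05) in 11 gene lists for 3 comparisons, with the list median as a black bar. The 10 sinusoidal and angiocrine genes centre near 0 with age and HDM201 in females and at 0.57 between young females and males, while Kupffer cell markers centre at 1.18, -1.14 and 0.93.

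Within groups, 6 of the genes were correlated from mouse to mouse. The log2(CPM + 1) level of each gene in each mouse was taken as its deviation from the mean of its group, over 27 mice. For Stab2, Clec4g, Oit3, Kdr, Bmp2 and Dnase1l3 the 15 pairs had Pearson correlations of 0.603 to 0.884 with a median of 0.783, and Spearman correlations of 0.401 to 0.807. The closest pair was Oit3 with Kdr, followed by Clec4g with Dnase1l3 at 0.878. The correlation of each pair without its 2 most distant mice lay between 0.394 and 0.823.

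Pecam1 had correlations of 0.353 to 0.596 with these 6 genes and Wnt2 of 0.396 to 0.658, whereas Rspo3 had -0.05 to 0.26. Over its 9 pairs Lyve1 had correlations of -0.379 (with Dnase1l3) to 0.323 (with Pecam1). Wnt2 rests on 9 to 47 reads per liver and Rspo3 on 44 to 118, and the part of read number in these correlations was not tested. The deviations come from the same libraries, so that depth and tissue composition are shared by all points, and the values are given as a description.

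**Figure D4:**
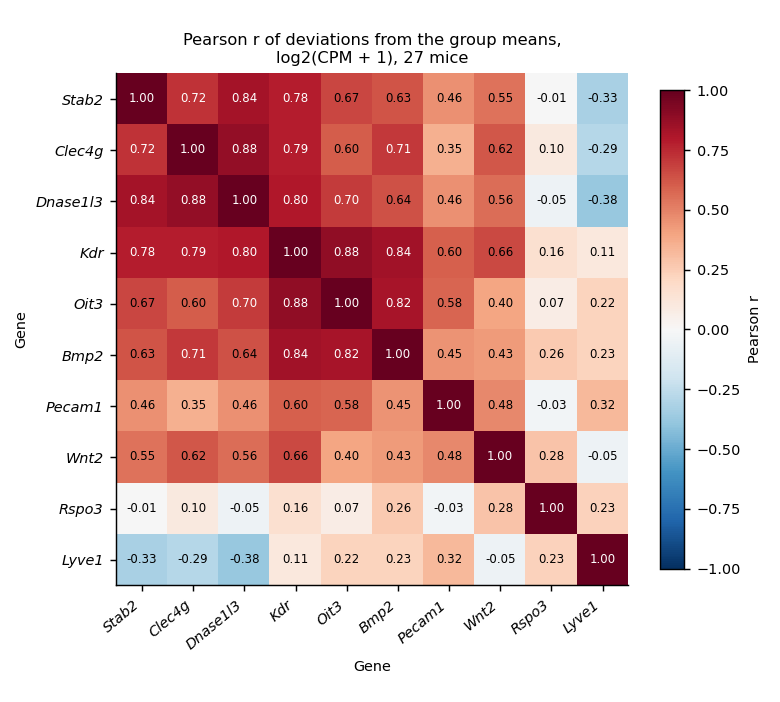
Pearson correlation (colour and number, from -1 in blue to 1 in red) between each pair of the 10 genes, over the deviations of log2(CPM + 1) from the group means in 27 mice. Stab2, Clec4g, Dnase1l3, Kdr, Oit3 and Bmp2 form a block at 0.60 to 0.88, and the row of Lyve1 runs from -0.38 to 0.32.

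Among 12775 genes with a mean of at least 1 CPM, those most like each of the 10 genes were found by the same correlation. Stab2 was nearest to Dnase1l3 (0.835), Cd300lg (0.813) and Gypc (0.793), and Clec4g to Dnase1l3, Ehd3 (0.863) and Fcgr2b (0.844). Dnase1l3 was nearest to Fcgr2b (0.887), Ehd3 (0.882) and Clec4g. Kdr was nearest to Cd300lg (0.889), Aqp1 (0.886) and Oit3, Oit3 to Kdr, Gpr182 (0.846) and Adgrf5 (0.838), and Bmp2 to Ehd3 (0.847), Kdr and Cd300lg (0.827).

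Lyve1 had other neighbours, namely Cd93 (0.768), Vim (0.767) and Nid1 (0.763). Wnt2 was nearest to Gfod1 (0.814), Cdh13 (0.790) and Vwf (0.768), the last being a gene of larger vessels. Pecam1 was nearest to Gemin5 (0.792), Adgrl4 (0.771) and Arl14ep (0.765). Rspo3 was nearest to Ctnnd1 (0.795), Xkr6 (0.668) and Pde3a (0.637).

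In the genome the 10 genes lie on chromosomes 2, 5, 6, 7, 8, 10, 11 and 14 (mm10). Stab2 (10, 86841198 to 87008025), Oit3 (10, 59422958 to 59441778) and Rspo3 (10, 29452416 to 29535867) share chromosome 10, at distances of many megabases, and all but Bmp2 are read from the minus strand. Lyve1 spans chr7:110850607-110863239. All 10 are annotated as protein coding.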

How the data were processed

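Livers of 29 mice in 6 groups were profiled by bulk RNA-seq, with groups and replicate numbers taken from the labels. The reads were mapped by the authors to mm10 (STAR, 2-pass), filtered (SAMtools) and counted per gene (HTSeq), and the deposited counts, held for 27 mice, were not normalized. Whether counting used the strand is not given in the sources used here. The FPKM values deposited for 29 mice were made by the authors with Cufflinks. The 10 genes and the gene lists were chosen with earlier results of these data known, and were described by counts and medians without a set test.

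The groups of each comparison, and no others, entered a quasi-likelihood F test in edgeR 4.0.16 (R 4.3.3) after filterByExpr (count of at least 10, total of at least 15) and TMM scaling, and a Benjamini-Hochberg FDR under 0.05 over all genes tested was called. Each mouse was taken as a biological replicate. The effects of age and HDM201 were compared between sexes as interactions. CPM were put on one TMM scale over 27 mice. Named genes were the 10 genes, up to 3 called genes per list and direction, and the 3 most correlated genes. Alternatives used DESeq2 1.42.0, RLE size factors, no filter, 1 fit over 6 groups, a replicate block, each mouse left out, and limma 3.58.1 on log2(FPKM + 1) and log2(FPKM + 0.1) rescaled by median-of-ratios. The scripts were tested on simulated data. No 2 libraries of a group agreed within sampling noise (48 pairs, lowest chi-square per gene 12.9). Depth, at least 16485900 reads per library, limits Wnt2 most.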

Additional observations from a re-analysis of the deposited data

Results flagged for a closer look

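In 60 sets of values (10 genes in 6 groups), 3 held 1 mouse far from the others by Dixon's ratio, which chance gives in about 1 of 20 sets. Oit3 in young vehicle female 2 was 33.6 CPM, with the next mouse of the group at 23.2 CPM. Rspo3 in old HDM201 female 4 was 5.26 CPM, with the next at 3.39 CPM. Dnase1l3 in old vehicle male 2 was 26.1 CPM, with the next at 34.5 CPM. Each of these mice also had the extreme value of its group for some other genes of the set, and no cause was tested.

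The effect of age on 2 BMP target genes differed between the sexes by the interaction test of edgeR. The female change exceeded the male change by 0.87 on the log2 scale for Id2 (FDR = 0.0283), with 0.60 in females and -0.25 in males. For Id3 it did so by 1.76 (FDR = 0.0233), with 1.18 in females and -0.57 in males. Both genes are inhibitors of helix-loop-helix factors that BMP signalling induces. The log2 difference for Bmp2 itself was -0.32 (95% interval -0.75 to 0.11).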

How the results depend on the processing

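Of 1350 recomputed log2 values, 1251 kept both direction and call, 75 reversed, 19 passed only under the alternative and 5 lost their call. The reversals fell in 23 of 70 results, and none of the 5 called results reversed. In the age comparison of females the count of genes called rose from 1 to 2 without a filter and in 1 fit of 6 groups, and was 1 to 2 when mice were left out in turn (Pecam1 in each case). In males it rose from 0 to 1 (Lyve1, FDR = 0.0261) in 1 fit of 6 groups with edgeR. For HDM201 in females it rose from 0 to 1 (Pecam1) with DESeq2, with no filter and with the replicate block (FDR = 0.0435). For sex in young mice it fell from 4 to 2 with limma on log2(FPKM + 1) and on log2(FPKM + 0.1), where Stab2 and Clec4g lost their calls. There Kdr and Wnt2 passed with DESeq2, with no filter and in 1 fit of 6 groups (Kdr also with the replicate block).

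Replicate numbers were shared between groups, but same-numbered mice deviated together at over 0.1 in at most 2 pairs of any comparison, so that the replicate block rests on numbers alone. Over all genes the block gave 3454 calls in place of 4530 for age in females, 29 in place of 507 for age in males and 366 in place of 758 for HDM201 in females.

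None of the reversed log2 values below was called, and the cause was not tested. For age in females these were Rspo3 0.012 with limma(FPKM + 1), Rspo3 0.023 with limma(FPKM + 0.1) and Rspo3 0.012 with limma(FPKM + 1) without the mice that lack counts. For age in males these were Stab2 -0.19, Clec4g -0.061, Kdr -0.076 and Bmp2 -0.027 with limma(FPKM + 1), Stab2 -0.21, Clec4g -0.067, Kdr -0.10, Wnt2 -0.0081 and Bmp2 -0.065 with limma(FPKM + 0.1), Pecam1 -0.0025 with no filter and Pecam1 -0.047 with the replicate block. For HDM201 in males these were Wnt2 -0.00058 with DESeq2, Wnt2 -0.00020 with 1 fit of 6 groups, Wnt2 -0.086 and Rspo3 -0.036 with the replicate block and Wnt2 -0.0048 with limma(FPKM + 1) without the mice that lack counts. For the sex difference in the HDM201 effect these were Bmp2 0.0066 with limma(FPKM + 1) without the mice that lack counts. For the sex difference in the age effect these were Stab2 0.16, Kdr 0.092 and Wnt2 0.035 with limma(FPKM + 1), Stab2 0.19, Kdr 0.12 and Wnt2 0.092 with limma(FPKM + 0.1), Oit3 -0.0068 with 1 fit of 6 groups, Oit3 -0.023 with limma(FPKM + 1) without the mice that lack counts and Wnt2 0.061 with the replicate block. When mice were left out in turn, reversals gave these ranges. For age in females the ranges were Clec4g -0.12 to 0.027, Kdr -0.032 to 0.17, Wnt2 -0.083 to 0.14 and Rspo3 -0.16 to 0.11. For age in males the ranges were Stab2 -0.070 to 0.20, Pecam1 -0.10 to 0.075 and Rspo3 -0.33 to 0.016. For HDM201 in females the ranges were Oit3 -0.20 to 0.0095. For HDM201 in males the ranges were Wnt2 -0.39 to 0.21 and Rspo3 -0.026 to 0.17. For sex in young mice the ranges were Lyve1 -0.62 to 0.10. For the sex difference in the HDM201 effect the ranges were Lyve1 -0.35 to 0.11 and Bmp2 -0.13 to 0.075. For the sex difference in the age effect the ranges were Lyve1 -0.30 to 0.52, Oit3 -0.092 to 0.18, Kdr -0.16 to 0.048 and Rspo3 -0.034 to 0.33.

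The number of mice, 4 or 5 a group, and the 9 to 47 reads of Wnt2 set the precision. The FPKM alternatives differ from the main test in the measure and the tool, and in males also by the 2 added mice, young vehicle male 5 and old vehicle male 1. Over all genes limma on log2(FPKM + 1) called 601 genes for sex in young mice and 876 on the mice with counts, in place of 1462, and 54 and 202 for age in males, in place of 507. The fit of FPKM on the mice with counts was chosen after the data were seen.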
